A study of Bos taurus with 35 samples.

Results

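Tenomodulin (TNMD) was read as gene ENSBTAG00000021059 in the count tables of Hanwoo cattle tissues, where it was 1 of 24596 genes in each of 34 libraries. It was taken up because its reads lay almost entirely in intramuscular (I) fat, with a wide spread between animals there and a low level in muscle, so its levels in I and in muscle against the other tissues and its spread in I are given here as descriptions without a p-value. The animals were Hanwoo (Korean native cattle) of 30 months that had been kept in one barn and carried no experimental treatment. From 9 animals, numbered 1 to 9 here, omental (O) and subcutaneous (S) fat gave 9 libraries each, and I fat and muscle gave 8 each. The I library of animal 9 was not analysed here, and animal 7 had no muscle library. Animals 1, 4 and 7 were labelled female, animals 2, 5 and 8 castrated male, and animals 3, 6 and 9 male, whereas the methods of the study call all of them steers. The labels were used, and the sex of a library was not checked, because no sex-linked gene other than TNMD could be named in the tables.

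Tenomodulin is a type II transmembrane glycoprotein of the chondromodulin family, and its gene is X-linked. It is best known as a marker of mature tendon and ligament cells, where it is needed for normal collagen fibrils, and it has also been described in adipocytes and their precursors of human fat. Intramuscular fat lies between muscle fibre bundles, close to the connective tissue sheaths that join muscle to tendon. In bulk tissue, fewer cells of a type and less RNA per cell cannot be told apart.

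The primer pair with which the study measured TNMD by quantitative PCR is shown because the table that lists it is also what ties the Ensembl identifier to the gene name.

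TNMD forward: ctcttattgtcctgttttggggg
TNMD reverse: tcttcttcttctctccattgctgt

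The forward primer has 23 bases and 47.8% GC, and the reverse primer has 24 bases and 41.7% GC. In the RefSeq gene table of cattle (assembly ARS-UCD2.0, not that of the counts), TNMD lies between PCDH19 and TSPAN6, and 0 genes overlap it. The strand setting of the counting was not given in the sources used here, so reads of both strands may have been counted.

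Counts on genes ranged from 3726376 to 7184022 per library, with medians of 5389329 in O, 5429641 in S, 5757418 in I and 5404697.5 in muscle, so that 1 count stood for less than 1 CPM (counts per 1e+06 counts on genes). Levels below are CPM with library sizes scaled by the trimmed mean of M values (TMM). In the deviations from the tissue mean, 43 of 48 pairs of libraries from one animal correlated above 0.1 (median r 0.458 over 200 variable genes). The muscle library of animal 4 stood apart, since 0 of its 3 pairs did so and all 3 other libraries of animal 4 were nearest to the muscle library of animal 1, so its label may be wrong. The fold changes and correlations of TNMD that use muscle are therefore also given without it. The muscle library of animal 6 also correlated weakly with O (r 0.0598) and S (r 0.0986) of that animal, which were nearest to the muscle library of animal 5. The I libraries of animals 5 and 6 were each nearest to the muscle library of their own animal (r 0.703 and 0.417). But S of animal 5 was nearest to I of animal 6 (r 0.105 with its own). O and S of animal 6 were nearest to I of animal 5. Animals 5 and 6 carry different sex labels. O of animal 3 was nearest to S of animal 9 and to I of animal 8. O of animal 7 was nearest to I of animal 1, and I of animal 8 to muscle of animal 9. The pairing of these animals is thus less sure. Without animal 6, the TNMD log2 fold change over muscle was 4.78 for I, -2.97 for O and -2.34 for S. Of the markers of fat and muscle that could be named, FASN and DGAT2, enzymes of fatty acid and triglyceride synthesis, averaged 668 ± 396 and 652 ± 373 CPM in I (SD, n = 8), below both other fats and above muscle. TPM2, a tropomyosin of muscle fibres, averaged 1472 ± 392 CPM in I and 33381 ± 10200.3 CPM in muscle (SD, n = 8).

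TNMD was abundant only in I among the 4 tissues. The I libraries of animals 1 to 8 held 102, 302, 559, 109, 332, 183, 46 and 845 counts of TNMD. The 9 O libraries held 0 to 5 counts (median 1), with 0 in animals 4 and 5, and the 9 S libraries held 0 to 10 counts (median 1), with 0 in animals 2, 5 and 9. The 8 muscle libraries held 1 to 19 counts (median 5.5). Summed over libraries, 2478 counts of TNMD fell in I, 48 in muscle, 20 in S and 15 in O.

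In CPM, the I libraries ranged from 6.90 in animal 7 to 143 in animal 8, with a median of 39.9 and a mean of 51.8 ± 46.1 (SD, n = 8). Muscle ranged from 0.283 in animal 3 to 6.83 in animal 8, with a median of 1.59 and a mean of 2.05 ± 2.15 (SD, n = 8). S reached 1.52 in animal 3 and averaged 0.333 ± 0.503, and O reached 0.821 in animal 9 and averaged 0.269 ± 0.293 (SD, n = 9 each). The order of the means was thus I, muscle, S and O, and the last 2 did not differ beyond their spread. No library of another tissue reached the lowest I library, but the margin to muscle was narrow, at 6.90 CPM in I of animal 7 against 6.83 CPM in muscle of animal 8. A library at 0 counts would allow up to 3 counts, which is 0.406 to 0.565 CPM in the O libraries at 0 and 0.479 to 0.502 CPM in the S libraries at 0.

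**Figure D1:**
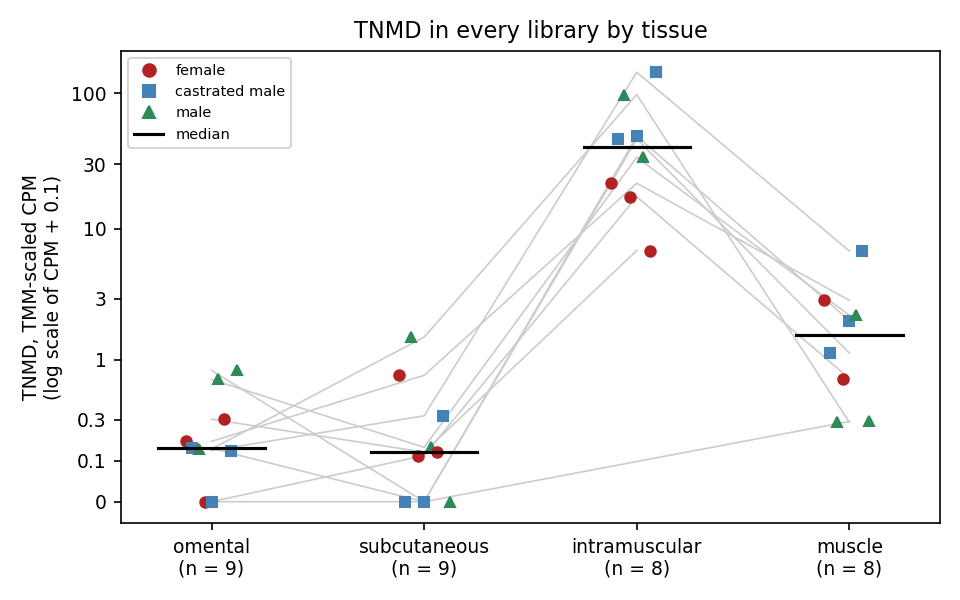
TMM-scaled CPM of TNMD (vertical axis, log scale of CPM + 0.1) in each library of the 4 tissues (horizontal axis), with 1 point per library coloured by sex label, grey lines joining libraries of one animal and black bars at the medians. The 8 I libraries lie between 6.90 and 143 CPM, above all muscle libraries (at most 6.83 CPM) and above all O and S libraries (at most 1.52 CPM).

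The fold of I over O was 187 (log2 7.55, SE 0.66), and the fold of I over S was 151 (log2 7.24, SE 0.70). TNMD was higher in I in 8 of 8 animals against either fat. Without animal 3, whose S library held the most counts, the log2 fold change of I over S was 7.83. For scale, 17.3% of 13156 genes were higher in I than in O and 17.5% of 13077 higher in I than in S by edgeR at a false discovery rate (FDR) under 0.01. Nothing is read from this for TNMD, which was chosen for the pattern.

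Against muscle, TNMD was 25.6-fold higher in I (log2 4.68, SE 0.63), and it was higher in I in 7 of the 7 animals with both libraries. Within animals the ratio ran from 7.46 in animal 1 (95% exact counting interval 3.49 to 19.0) to 345 in animal 3, where it rests on 1 count in muscle (interval 61.7 to 13663). In animal 8, which had the highest level in both tissues, the ratio was 20.9 (interval 13.3 to 34.9). By the correlation check, however, I of animal 8 was nearest to the muscle library of animal 9 (r 0.174 with its own). The log2 fold change was 4.70 without the muscle library of animal 4 and 5.39 without that of animal 8. Without TMM it was 5.42, but there the median of all genes also moved, to 0.79 in favour of I. In this contrast 29.8% of 12447 genes were higher in I.

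Among 11058 genes with a median of at least 5 CPM in I, 252 (2.28%) had every I library above every library of the other tissues, TNMD among them. By the ratio of its mean in I to that of the next tissue, 25.2, TNMD ranked 12 among these genes, and 47 genes had a ratio of at least 10. Muscle RNA in the I libraries was read from 210 genes whose mean in muscle was at least 100 times that in either O or S. Their sum in I was 0.405% to 2.98% of its mean in muscle. In the other direction, 134 genes with means in O and in S of at least 20 times that in muscle summed to 394 to 1583 CPM in muscle, 2.58% to 10.4% of their mean in I. TNMD in muscle was 0.546% to 13.2% of its mean in I, and the TNMD share exceeded the fat gene share only in animal 8 of the 8 muscle libraries. Both gene groups were chosen from these libraries, and the part of tissue admixture in the TNMD counts of I or of muscle was not tested.

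Outside I, TNMD was lower in both other fats than in muscle. These values come from a fit without the usual count filter, which the few counts did not pass, and they carry no p-value because the low level in muscle was a reason for taking up the gene. The log2 fold change of O over muscle was -2.76 (SE 0.63), with a lower level in O in 7 of 8 animals. That of S over muscle was -2.45 (SE 0.69), again with a lower level in S in 7 of 8 animals. Such differences were common, since 22.4% of 19149 genes were lower in O and 22.0% of 19241 lower in S than in muscle by edgeR at an FDR under 0.01. The log2 fold changes were -2.85 for O and -2.58 for S without the muscle library of animal 4.

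The size of these differences moved with single libraries and with the scaling. Without the muscle library of animal 8, the log2 fold change was -2.18 for O and -1.86 for S. Leaving out animal 3 gave -3.40 for S, and leaving out animal 8 gave -2.09 for O and -1.86 for S. Without TMM, whose factors were 0.523 to 0.747 in muscle and 1.12 to 1.29 in O, the values were -1.95 for O and -1.67 for S.

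Between O and S, no difference in TNMD was detectable at this depth (log2 fold change -0.31, SE 0.74, edgeR adjusted p = 0.867), on 15 and 20 counts in all. It was higher in O in 4 animals, lower in 4 and equal in 1, and 3.03% of 19310 genes were called in this comparison. Animal 3 decided the sign, which turned to 0.54 without it, when the mean in S fell to 0.184 CPM.

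Within I, TNMD differed widely between animals, which was also a reason for taking it up, so its place among the genes is a description. The SD of its log2 CPM over the 8 libraries was 1.38, against 0.40 for the median gene, and 98.6% of the 11058 genes had a lower SD. Among the 4536 genes within 2-fold of its median level the share was 98.8%. Counting error was small beside it. The 95% exact Poisson interval was 5.05 to 9.20 CPM in animal 7, with the lowest count, and 133 to 153 CPM in animal 8.

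Levels in I separated by sex label, in part. The females had 21.7, 17.3 and 6.90 CPM (animals 1, 4 and 7), the castrated males 46.0, 48.3 and 143 CPM (animals 2, 5 and 8), and the males 97.7 and 33.8 CPM (animals 3 and 6). All 3 females lay below all 5 animals of the other labels, with no overlap, as did 2.37% of the 11058 genes with a median of at least 5 CPM in I, while males and castrated males overlapped. The means were 15.3 ± 7.62 in females (SD, n = 3), 79.0 ± 55.2 in castrated males (SD, n = 3) and 65.7 ± 45.2 CPM in males (SD, n = 2).

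This difference did not pass a test across genes. Over the 3 labels, the edgeR F-test gave an adjusted p of 0.981, with a p of 0.0136 before adjustment over 13687 genes, of which 0.0146% were called. The log2 fold change over females was 2.36 (SE 0.63, edgeR adjusted p = 0.661) in castrated males and 2.10 (SE 0.67, edgeR adjusted p = 1.0) in males, where 0.0292% of genes were called in each comparison. Castrated males over males came to 0.26 (SE 0.67, edgeR adjusted p = 0.959), with 0 genes called (0.00%, 552 genes at an unadjusted p under 0.05). Both kinds of male together over females gave 2.26 (SE 0.56, edgeR adjusted p = 0.979), where 0.0375% of 13340 genes were called.

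**Figure D2:**
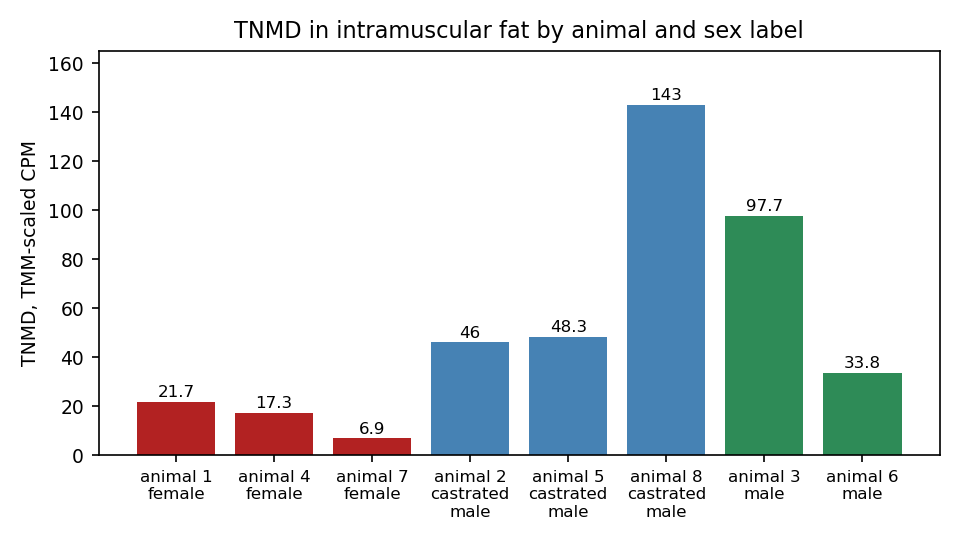
TMM-scaled CPM of TNMD (vertical axis, from 0) in the I library of each of 8 animals (bars), ordered and coloured by sex label. The 3 females reach at most 21.7 CPM, and the 5 males and castrated males lie at 33.8 CPM or more.

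TNMD in I was set against 4 measures of the libraries, a family chosen to show whether tissue composition or depth moved with it. The sum of the muscle-restricted genes gave r = 0.154 and rho = 0.214 (exact permutation p = 0.731 and 0.619, n = 8), and the sum of the fat-restricted genes gave r = -0.205 and rho = 0.0476 (exact permutation p = 0.641 and 0.935, n = 8). Counts on genes gave r = 0.108 and rho = 0.167 (exact permutation p = 0.806 and 0.703), and the share of counts on genes gave r = 0.490 and rho = 0.143 (exact permutation p = 0.219 and 0.752). The adjusted p over the 4 measures was 0.806 for each r and 0.935 for each rho. Leaving out the 2 libraries farthest from the median of each measure gave r = 0.675, -0.347, -0.350 and -0.324 in the same order. With 8 animals none of these relations was detectable, and animal 8 moved the r of the share of counts on genes to 0.0527, that of the muscle-restricted sum to -0.363 and that of the fat-restricted sum to 0.365 when it was left out. The fat-restricted sum itself was 7582 to 23656 CPM in I. It was 33440 to 56519 CPM in O and 33236 to 50923 CPM in S, the tissues in which its genes were chosen to be high.

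**Figure D3:**
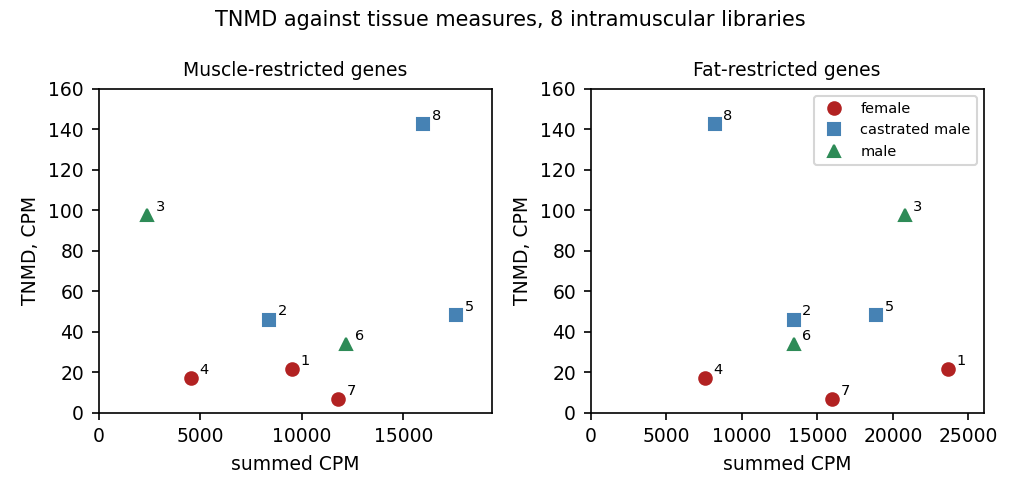
TMM-scaled CPM of TNMD (vertical axes) in the 8 I libraries against the summed CPM of 210 muscle-restricted genes (left) and of 134 fat-restricted genes (right), 1 point per library with its animal number and sex label. High and low TNMD libraries are scattered over both axes, with r = 0.154 on the left and r = -0.205 on the right.

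No relation was detectable between TNMD in I and in the other tissues of the same animals. Over animals, TNMD in I and in muscle gave r = 0.214 and rho = 0.143 (exact permutation p = 0.644 and 0.783, n = 7). With S, r was 0.319 and rho 0.228 (exact permutation p = 0.437 and 0.586, n = 8), and with O, r was -0.172 and rho -0.383 (exact permutation p = 0.687 and 0.345, n = 8). Adjusted over these 3 relations, p was 0.687 for each r and 0.783 for each rho. The relation to muscle was not steady when animals were left out. Its r turned to -0.928 without the 2 animals farthest from the median in I and to -0.474 without animal 8. Without animal 4 it fell to 0.0122. The r without the 2 farthest animals was 0.342 for S and 0.0531 for O. These relations were computed after the values had been seen. They also rest on the pairing of libraries by animal, which the correlation check did not bear out for every pair.

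Which genes followed TNMD over the 8 I libraries was read in 2 ways, by the correlation of log2 CPM and by the slope on log2 TNMD in an edgeR fit. Of 11057 other genes with a median of at least 5 CPM, 19 had r of 0.9 or more and 11 had r of -0.9 or less. The median r of all genes was 0.01, and 5% of the genes lay below -0.587 and 5% above 0.627. Such r values rest on 8 libraries that differed in depth and composition, and they were ranked from all genes, so they are given without p-values.

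Only the genes of the primer table could be named, and none of the genes nearest to TNMD was among them. The 10 genes with the highest r had r from 0.926 to 0.968 and rho from 0.881 to 1.0. Of these, 7 had their highest mean in I, 1 in muscle and 2 in another fat. The lead of I could be small, as with 39.8 CPM in I against 35.6 in S for the gene with the highest r. The 5 genes that ran most strongly against TNMD had r from -0.969 to -0.913, and 1 of them was highest in I. The share of all 11057 genes that were highest in I is not given, so nothing is read from these counts by tissue.

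The gene with the highest r, ENSBTAG00000038298, had CPM of 33.3, 45.0, 45.8, 34.6, 42.3, 38.6, 29.1 and 50.0 in animals 1 to 8 (r = 0.97, rho = 0.95). Its range was narrow, from 29.1 to 50.0 CPM where TNMD ran from 6.90 to 143, and its slope was 0.19 (SE 0.07, edgeR adjusted p = 0.825). It was also present at like levels in the other tissues, with means of 33.2 CPM in O, 35.6 in S and 31.0 in muscle.

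The second, ENSBTAG00000014969, had CPM of 13.9, 20.9, 51.0, 7.78, 20.5, 12.6, 4.20 and 125 in animals 1 to 8 (r = 0.97, rho = 0.95). It was lowest in animal 7 and highest in animal 8, as TNMD was. Like TNMD, it was nearly confined to I, with a mean of 32.0 ± 40.4 CPM there, 1.47 ± 1.65 in muscle (SD, n = 8 each), 0.475 ± 0.662 in O and 0.268 ± 0.252 in S (SD, n = 9 each). Its slope of 1.11 (SE 0.11) on log2 TNMD was the 1 call among the 11053 of these genes that also passed the count filter (0.00905%, edgeR adjusted p = 0.00963). At an unadjusted p under 0.05 there were 475 genes (4.30%), and DESeq2 called 16.

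The call of ENSBTAG00000014969 lay close to the threshold and depended on the animals and the model. Its slope was 0.93 to 1.21 when each animal was left out in turn, and it stayed called only without animal 5. Without animal 8, the slope was 0.93 (edgeR adjusted p = 0.224). With a term for the labelled sex the slope was 1.36 (edgeR adjusted p = 0.305), and with the muscle-restricted sum as a term it was 1.11 (edgeR adjusted p = 0.0305). In muscle, ENSBTAG00000014969 and TNMD gave r = 0.630 and rho = 0.619 (exact permutation p = 0.0938 and 0.115, n = 8), which adjusted over 15 genes came to 0.296 and 0.575. There r was 0.602 without the library of animal 4 (exact permutation p = 0.147, n = 7) and -0.05 without the 2 libraries farthest from the median. Another of the 10 genes with the highest r in I had a higher r in muscle, 0.745 (exact permutation p = 0.0355, adjusted 0.225). That gene was also highest in I, at 308 CPM against 6.75 in muscle, 4.57 in O and 3.07 in S.

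Of the genes that ran against TNMD, ENSBTAG00000009855 ranged from 27.3 CPM in animal 7 to 16.6 CPM in animal 8, in an order that was the reverse of that of TNMD (rho = -1.0, r = -0.97). ENSBTAG00000020073 ranged from 34.8 CPM in animal 7 to 14.7 CPM in animal 8 (r = -0.94, rho = -0.90). Neither passed the test of the slope, which was -0.17 (SE 0.07, edgeR adjusted p = 1.0) for ENSBTAG00000009855 and -0.27 (SE 0.07, edgeR adjusted p = 0.518) for ENSBTAG00000020073.

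**Figure D4:**
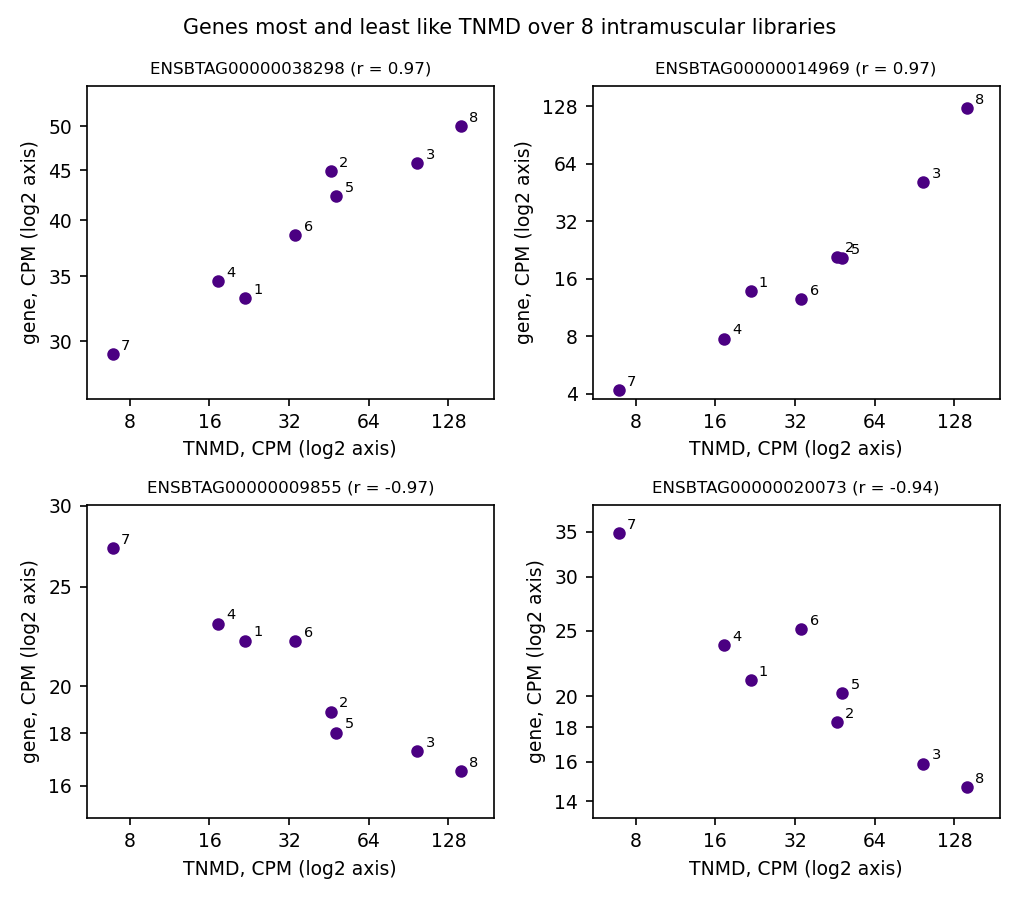
CPM of 4 genes (vertical axes, log2, of different range) against CPM of TNMD (horizontal axes, log2) in the 8 I libraries, each point labelled with its animal number. ENSBTAG00000014969 spans 4.20 to 125 CPM along with TNMD, whereas ENSBTAG00000038298 spans only 29.1 to 50.0 CPM and the lower pair runs against TNMD.

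Likeness over all 34 libraries, where most of the range of TNMD lies between tissues, picked mostly other genes. The 5 genes with the highest r to TNMD over all libraries had r from 0.909 to 0.919 and were all highest in I, but within I their r ran from 0.0849 to 0.966. Only ENSBTAG00000014969 was in both groups, with r = 0.91 and rank 2 over all libraries.

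The 30 other named genes were also compared with TNMD in I, and 17 of them had a median of at least 5 CPM there. Their r ran from -0.660 for ERBB3, a neuregulin receptor, to 0.594 for PPP1R3C, a glycogen-targeting subunit of protein phosphatase 1. For ERBB3, rho was -0.571 (exact permutation p = 0.0750 for r and 0.151 for rho, n = 8), and for PPP1R3C, rho was 0.619 (exact permutation p = 0.114 and 0.115, n = 8). None of the 17 reached an exact permutation p under 0.05, and the lowest adjusted p was 0.484. Without the 2 farthest libraries, r was -0.411 for ERBB3 and 0.184 for PPP1R3C. FASN, DGAT2 and TPM2 gave r of -0.207, 0.118 and -0.260.

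The mean of TNMD in I over that in muscle may be set beside those of other named genes. DUSP27 and TPM2, which are expressed in muscle, had ratios of 0.0148 and 0.0441. PPP1R3C had a ratio of 0.970, and CCL2, a chemokine that attracts monocytes, 24.3. MMP9 had a higher ratio than TNMD, 62.4, on low means of 4.46 CPM in I and 0.0715 CPM in muscle. ISL1, TCF21, MFSD2A and LHX8 had a muscle mean of 0 and thus no ratio. Gene lists for tendon and ligament, cartilage, adipocytes, muscle fibres and 5 other cell types were drawn up, but only 5 of their 162 members, and 0 of the 50 tendon and ligament members, could be matched to an identifier. A description of the tendon programme beside TNMD was therefore void, and its homologue CNMD has no value here.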

How the data were processed

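RNA of 4 tissues of 9 Hanwoo cattle was sequenced as poly(A) libraries. Per the labels and methods, the authors mapped paired reads to bosTau6 with TopHat2 2.0.2 and counted reads on Ensembl genes with HTSeq 0.5.3p3. The deposited values are raw counts, used as deposited. The 5 lines that name no gene were left out of library sizes (no_feature 54.5% to 62.8%, not uniquely aligned 6.65% to 15.4%, ambiguous 0.0414% to 0.110% of each table). Counts scaled by TMM were tested with the edgeR 4.0.16 quasi-likelihood test (R 4.3.3, FDR under 0.01) after filterByExpr with a count minimum of 10, or without a filter where TNMD failed it. DESeq2 1.42.0 was an alternative. Log2 CPM used a prior count of 2. Permutation tests went through every pairing with numpy 2.4.6, and scipy 1.17.1 gave the ranks and the counting intervals. Counting intervals, at 95%, and the floor of 3 counts per library cover counting error only.

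Samples were grouped by the tissue label. Libraries of one animal were paired by the animal number in the sample titles, and the check of this pairing stands with the depths. That check did not bear out every pair. Between libraries of one tissue, chi-square over its degrees of freedom was at least 12.7 in 128 pairs, far above sampling noise. TNMD and the gene lists were chosen with earlier results of these data known. Named genes were TNMD, the 10 genes with the highest and the 5 with the lowest r in I, the 5 with the highest r over all libraries, list members with the 4 largest and 2 smallest fold changes of I over S, and genes of the primer table set beside TNMD. At most 2 unnamed identifiers in each direction are printed. Identifiers were paired with names for 31 genes. The slope was first run with a count filter on the I libraries alone and then, after that result was seen, with the planned filter by tissue over all libraries. The pipeline was tested on simulated data.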

Additional observations from a re-analysis of the deposited data

Results flagged for a closer look

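In groups of 4 to 10 libraries, the gap between an extreme library and its neighbour was compared with the whole range of the group (Dixon's 95% limit). This was done for TNMD in each of the 4 tissues. It was also done, in I only, for ENSBTAG00000038298, ENSBTAG00000014969, ENSBTAG00000009855 and ENSBTAG00000020073. Of these 8 groups, 3 passed the limit. About 1 in 20 would pass among independent groups of normally distributed values, but these genes were picked for following TNMD or running against it. TNMD in the S library of animal 3 stood at 1.52 CPM on 10 counts, and the next S library, of animal 1, at 0.748 CPM on 5 counts. That gap of 0.507 of the range was just over the limit of 0.493. TNMD in the muscle library of animal 8 stood at 6.83 CPM, far above the other muscle libraries (gap 0.598 of the range). ENSBTAG00000014969 in the I library of animal 8 stood at 125 CPM (gap 0.614 of the range), in the library that also held the most TNMD. The causes were not tested.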

How the results depend on the processing

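Of 301 values recomputed under alternatives, 265 kept their direction and side of the threshold or stayed within the set tolerance. Of the rest, 18 no longer passed the threshold, 13 counts moved and 5 changed sign, and the cause was not tested. The 265 include counts of called list members, which never changed but rest on only the 5 matched members. The log2 fold change over muscle without TMM was -1.95 for O and -1.67 for S. With each animal left out it was -3.32 to -2.09 for O and -3.40 to -1.86 for S, and -1.86 for S without the muscle library of animal 8, an alternative added after the data were seen, as was that without animal 4. O over S ran from -0.87 to 0.54, the last without animal 3. With the animal as a replicate block, the log2 fold changes were 7.84 (I over O), 7.01 (I over S), 4.65 (I over muscle), -2.69 (O over muscle), -2.48 (S over muscle) and -0.14 (O over S, edgeR adjusted p = 0.938), and the block turned no direction.

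The number of genes following TNMD was 0 without TMM, with a median of at least 1 CPM, without a median filter, with sex as a term and with the muscle-restricted sum as a term, 16 with DESeq2, and 0 to 1 with each animal left out. It was 1 with the count filter on the I libraries alone, added after the data were seen. The relation of TNMD to the muscle-restricted sum was r = -0.0772 with both on the log2 scale and -0.363 to 0.553 with each animal left out. With each animal left out, r ran from -0.459 to 0.365 for the fat-restricted sum, from -0.102 to 0.199 for counts on genes and from 0.0527 to 0.675 for the share of counts on genes. The adjusted p of the sex test ran from 0.576 to 1.0 with each animal left out and was 0.201 with DESeq2. Outside I, 0 to 19 counts a library limit the precision of every TNMD value, and within I the 8 animals do.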
